A study of Drosophila melanogaster with 2 samples.

Results

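Binding of CG14711-eGFP was examined at 92 of the 13945 protein-coding genes of the Drosophila melanogaster annotation. These are all those whose symbol begins with RpL or RpS, and by symbol alone they are here called cytoplasmic ribosomal protein genes. The symbols split them into 54 genes of the large subunit (RpL) and 38 of the small subunit (RpS). Genes of the mitochondrial ribosome carry other symbols and are not among them. Binding was measured by chromatin immunoprecipitation and sequencing (ChIP-seq) with an antibody against GFP in whole adult female flies of a single transgenic line, in which an insertion stably expresses CG14711 with GFP at its C terminus. The age of the flies is given as unknown, and the labels used here do not say whether untagged CG14711 was also present. There was 1 group of 2 samples, numbered biological replicates 3 and 4, and no second condition. A gene was given a promoter peak where the summit of a peak lay within 500 bp of any of its annotated transcription start sites (TSSs), and coordinates are those of dm6.

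Each cytoplasmic ribosome is built from a small subunit, which reads the messenger RNA and decodes it, and a large subunit, which joins amino acids into protein. Their proteins are needed in fixed proportions and are encoded by genes scattered over all chromosome arms, most of them present once and a few duplicated, with some of the duplicates used mainly in the germ line. In Drosophila many of these genes start transcription at a pyrimidine-rich initiator called TCT instead of the common initiator, and several host small nucleolar RNAs in their introns. Loss of 1 copy of many of them gives the Minute phenotype, with delayed development and short bristles. CG14711 belongs to the zinc-finger proteins with a ZAD domain, a large class of DNA-binding proteins in insects.

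The 4 deposited lists gave each peak a signal value, which is the authors' own and here orders peaks inside 1 list at a time. The list filtered by IDR (irreproducible discovery rate), which asks whether peaks keep their rank from replicate to replicate, held 5654 peaks and was identical to the 5654 pooled peaks of highest signal, so an IDR peak is here a pooled peak with a signal of at least 146.3. The pooled list and the list of each replicate held 30000 peaks. The depth of the libraries is unknown. Wilson 95% intervals, where given for shares of genes, cover the sampling of genes alone. Whether 2 such intervals overlap is stated as a description and is no test of a difference. Genes are not replicates, and with 1 group no test over samples could be made, so comparisons between gene groups are descriptions set beside the values of each replicate.

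The highest promoter peaks of ribosomal protein genes are shown first, by the sequence around their summits. These 4 windows hold the 50 bases to either side of the summit, on the strand of the named gene, in the dm6 sequence as held by RefSeq. Capitals mark any match to the searched motifs, which are described further on.
RpL13 (chr2L:9967106-9967206, plus strand): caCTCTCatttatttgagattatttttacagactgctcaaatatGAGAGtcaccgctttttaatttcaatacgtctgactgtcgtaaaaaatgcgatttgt
RpS25 (chr3R:11216324-11216424, minus strand): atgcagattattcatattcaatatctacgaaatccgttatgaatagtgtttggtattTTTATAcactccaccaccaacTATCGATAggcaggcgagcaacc
RpS27 (chr3R:25247496-25247596, minus strand): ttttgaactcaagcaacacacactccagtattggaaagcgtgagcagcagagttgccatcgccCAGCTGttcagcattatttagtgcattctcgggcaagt
RpS14a (chrX:7933578-7933678, plus strand): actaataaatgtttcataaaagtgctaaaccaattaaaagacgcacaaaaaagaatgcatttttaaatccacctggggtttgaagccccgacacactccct

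RpL13 (FBgn0011272), a protein of the large subunit, had the strongest of these peaks, with a signal of 3119 at rank 50 of the 5654 IDR peaks. It spanned 9966796 to 9967514 on 2L, and its summit lay 157 bp upstream of the RpL13 TSS and 73 bp from the TSS of Dref, the factor that binds the DNA replication-related element (DRE). In the separate lists its signal was 1375 in replicate 3 (rank 40) and 1733 in replicate 4 (rank 73). RpS25 (FBgn0086472), a protein of the small subunit, followed with a signal of 2077 (rank 141), from a peak of 11216101 to 11216642 on 3R that was also within 500 bp of CG4820. It ranked 110 in replicate 3 and 178 in replicate 4. RpS27 (FBgn0039300) had a signal of 1950 (rank 162), and its peak was also within 500 bp of the TSS of Nup37, a nuclear pore gene. It ranked 193 in replicate 3 and 149 in replicate 4. RpS14a (FBgn0004403) had a signal of 1586 (rank 228) and shared its peak with Dhdds, a gene of dolichol synthesis, and it ranked 311 in replicate 3 and 214 in replicate 4. These genes stood high in both lists, and neither replicate ranked all 4 better. All 4 windows differed from one another in their motif matches, and none of the searched motifs matched the RpS14a window.

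Of the 92 ribosomal protein genes, 78 had an IDR promoter peak, 84.8% with an interval of 76.1 to 90.7%. Among all 13945 protein-coding genes the share was 30.7%, and among the 13853 others it was 30.3% (4198 genes, interval 29.5 to 31.1%). In the pooled list 88 of 92 ribosomal protein genes (95.7%) had a promoter peak, where the share of all protein-coding genes was 60.9%. The replicates gave much the same count when taken alone. Replicate 3 had a promoter peak at 86 ribosomal protein genes (93.5%), against 59.8% of all protein-coding genes, and replicate 4 at 87 (94.6%), against 60.2%. The gap between ribosomal protein genes and other genes was therefore present in each replicate. In material from whole flies, binding in few cells and weak binding in many cells cannot be told apart.

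The subunits had nearly the same share. Large subunit genes had an IDR promoter peak in 46 of 54 cases, 85.2% (73.4 to 92.3%), and small subunit genes in 32 of 38, 84.2% (69.6 to 92.6%). By chromosome arm the share ran between 78.9% for the 19 genes of 2L and 92.9% for the 14 genes each of 3L and X, and RpS3A, the only gene of this kind on arm 4, had a peak.

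Promoters of the compact fly genome are often shared, so that 1 peak can lie near the start sites of both genes. Another protein-coding TSS was found within 1000 bp of 58 of the 92 genes, in 55 cases with a gene that pointed away on the other strand. Among genes that shared a promoter in this sense, 50 of the 58 ribosomal protein genes had an IDR promoter peak, 86.2% (75.1 to 92.8%), against 48.3% of all such protein-coding genes and 47.9% of the others. Among genes that stood alone, 28 of 34 ribosomal protein genes had a peak, 82.4% (66.5 to 91.7%), against 17.4% of all such genes and 17.1% of the others. Ribosomal protein genes were bound in nearly the same share in both settings, while other genes without a neighbour had a much smaller share than other genes with a neighbour. With 500 bp as the limit for a neighbour the shares were 33 of 37 and 45 of 55. With non-coding neighbours also counted, 16 of 21 genes that remained alone had a peak.

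**Figure D1:**
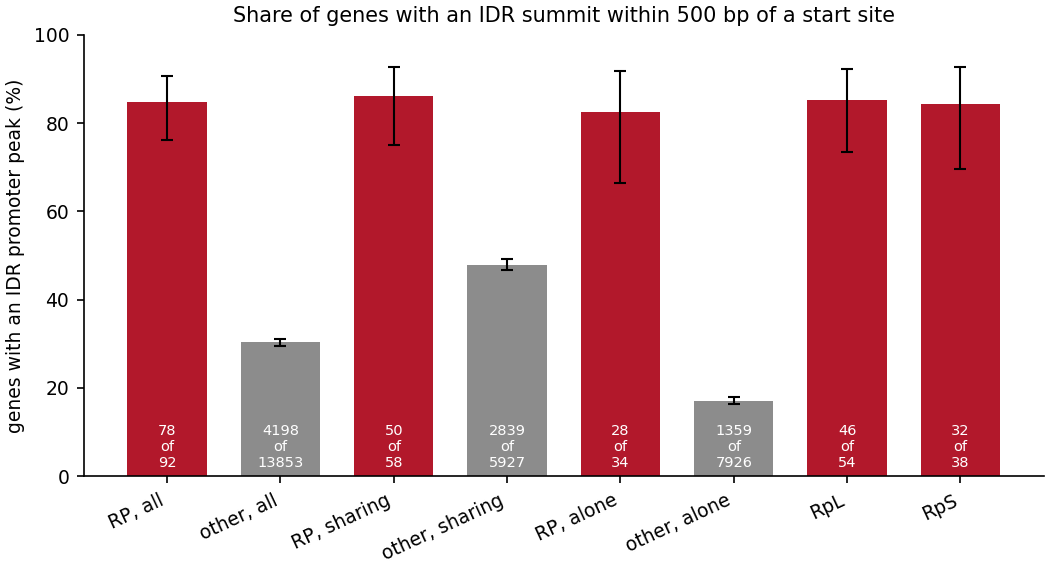
Share of genes with an IDR summit within 500 bp of a TSS, in percent, for ribosomal protein (RP) genes in red and other protein-coding genes in grey, with the number of genes in each bar and Wilson 95% intervals as error bars. The red bars run from 82.4 to 86.2%, whereas the grey bars are 30.3% for all other genes, 47.9% for those sharing a promoter and 17.1% for those alone.

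Genes with several annotated TSSs have more chances of a summit nearby, and 44 ribosomal protein genes had more than 1. Of these, 41 had an IDR peak, 93.2%, against 45.8% of other genes with several TSSs. Of the 48 with a single TSS, 37 had a peak, 77.1% (63.5 to 86.7%), against 24.7% of other genes with a single TSS. Genes that host small nucleolar RNAs inside them had a peak in 26 of 28 cases, and those without in 52 of 64, with intervals that overlapped.

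The signal of peaks at ribosomal protein genes covered a narrower middle range than at other genes. Their IDR signal had a median of 340.5 and a middle range of 258.6 to 460.7, and that of other genes a median of 295.2 and a wider middle range of 197.1 to 589.7. With the IDR list divided by rank into 4 equal parts, the strongest part held 21 of the 78 ribosomal protein genes (26.9%), the next 40 (51.3%), the third 14 (17.9%) and the weakest 3 (3.85%). Other genes with a peak were spread more evenly, with 32.9, 24.9, 22.5 and 19.7% in the same parts. Ribosomal protein genes exceeded the share of other genes in the second part alone. The rank depended on the replicate. Among the 5654 best peaks of replicate 3 alone the median rank was 1316 for ribosomal protein genes and 2322 for other genes, and among those of replicate 4 alone it was 2237 and 2355. Within the 2827 strongest IDR peaks the order of the medians turned round, with 385.8 for ribosomal protein genes and 522.4 for other genes. With these peaks alone, 61 of 92 ribosomal protein genes had a promoter peak (66.3%), against 17.5% of other genes.

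The top of the range was held by genes that shared a promoter. Of the 12 strongest members, 10 shared a promoter, as did 50 of all 78 with an IDR peak (64.1%). Of these 10, 8 exceeded RpL23A, the strongest of the genes that stood alone, with a signal of 741.2. After the 4 genes shown above came RpL34b with a signal of 1382 (rank 302, peak also at CG8132), RpL7 with 1157 (rank 409, also at Ripalpha), and RpS20 with 1104 (rank 430, also at CG17271). RpL14 had 841.4 beside Nelf-E, which encodes a subunit of the negative elongation factor. RpL32, long used as a reference transcript in fly work, had 674.1 beside CG7943. RpL24 had 673.4 with no neighbour. The medians were closer than these extremes, with 362.9 for the 50 bound genes that shared a promoter and 308.2 for the 28 that stood alone. Other genes with an IDR peak differed in the same direction, with medians of 318.0 when sharing a promoter and 253.0 when alone. For large and small subunit genes the medians were 366.9 and 319.9, within a spread from 157.5 to 3119.

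**Figure D2:**
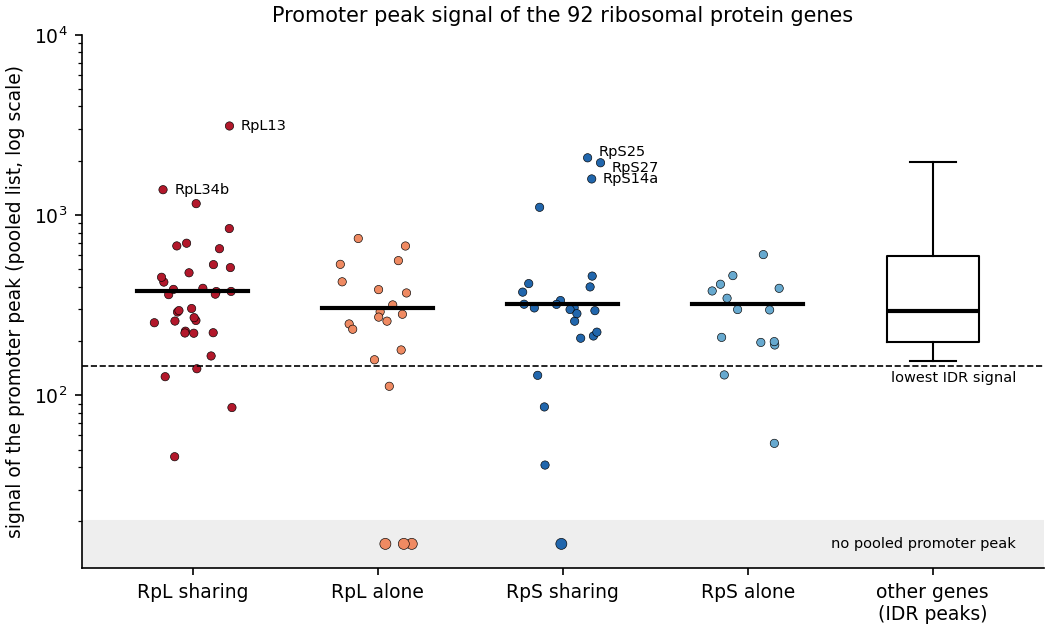
Signal of the promoter peak in the pooled list on a log scale, 1 point per ribosomal protein gene, for large (RpL) and small (RpS) subunit genes that share a promoter or stand alone, with horizontal lines at the medians of genes with an IDR peak. The box gives the IDR peaks of other protein-coding genes (median, quartiles and the 5th and 95th percentiles), the dashed line the lowest IDR signal, 146.3, and the 4 points in the grey band are genes with no pooled promoter peak.

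Of the 78 peaks, each a distinct peak, 32 were also within 500 bp of the TSS of another protein-coding gene. For most of these the ribosomal protein gene was the nearer, but for 5 genes the summit was nearer to the neighbour. They were RpL13 beside Dref, RpS20 beside CG17271, RpS28a beside Axn, the gene of the Wnt pathway scaffold Axin, RpL18 beside Neos, and RpL29 beside Sgf29. The RpL29 summit lay 116 bp upstream of RpL29 and 6 bp from the Sgf29 TSS. The RpL18 summit was almost midway, 139 bp from the RpL18 TSS and 138 bp from that of Neos. At RpS27A, not counted among the 5, the summit lay 6 bp from its own TSS and 6 bp from that of Ip259. When each peak was credited to the nearest TSS alone, counting genes of every type, 71 of 92 ribosomal protein genes (77.2%) kept a peak, against 22.3% of other genes. A further peak within 500 bp was present at 4 genes, RpL18, RpL28, RpL41 and RpS27, and the second peak at RpS27 had a signal of 576.1 and a summit at -234 bp.

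Summits at ribosomal protein genes lay close to the TSS. Relative to the nearest TSS of the gene, with negative values upstream, the median summit position of the strongest promoter peak was -34 bp for the 78 ribosomal protein genes (middle range -78 to 8 bp) and -114 bp for other genes with a promoter peak (-188 to -36 bp). The summit was within 50 bp of the TSS for 55.1% of ribosomal protein genes and 21.2% of other genes. It was more than 100 bp upstream for 15.4% of ribosomal protein genes, against 55.3% of others. The same was seen among genes with a single annotated TSS, an alternative added after the data were seen, with medians of -50 bp for 37 ribosomal protein genes and -122 bp for 2524 others. The gap was smaller in 2 other comparisons. With each peak credited to the nearest TSS alone, the medians were -24 bp for 71 ribosomal protein genes and -84 bp for 3089 others. Among genes with a single TSS that stood alone, they were -54 bp for 13 and -99 bp for 752. Small subunit summits had a median of -12 bp and large subunit summits one of -45 bp, and their middle ranges overlapped widely. The farthest summits were those of RpS20 at -192 bp, RpL13 at -157 bp and RpS28a at -148 bp, which are 3 of the 5 genes whose neighbour was nearer.

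**Figure D3:**
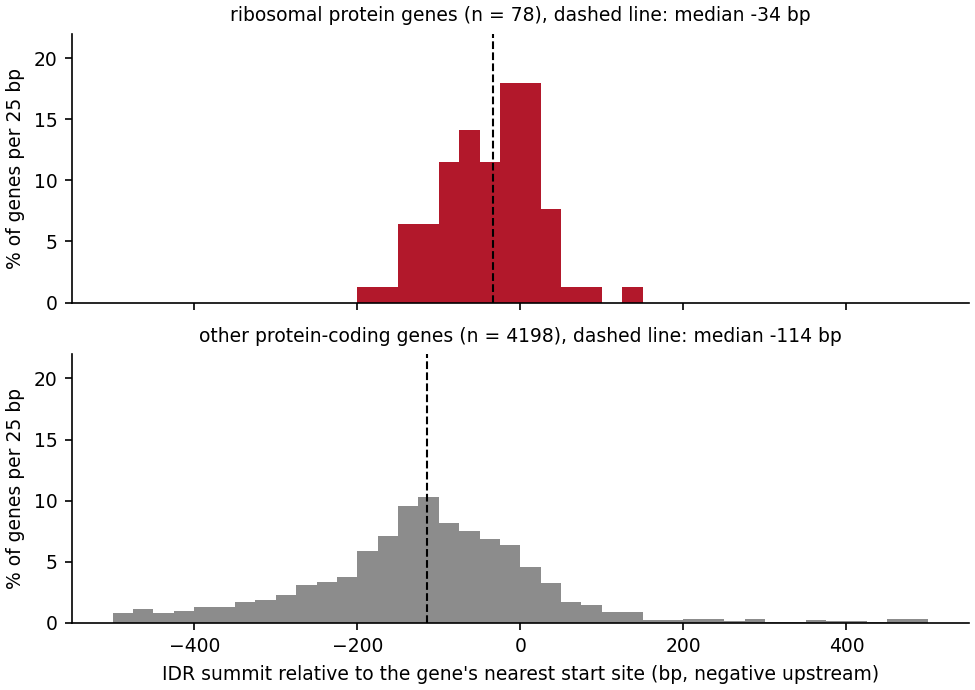
Position of the IDR summit relative to the gene's nearest TSS, in bp with upstream negative, as the percent of genes in bins of 25 bp, for 78 ribosomal protein genes in the upper panel and 4198 other protein-coding genes in the lower. Dashed lines mark the medians, -34 bp for ribosomal protein genes and -114 bp for the others, and the strongest promoter peak of each ribosomal protein gene had its summit within 192 bp of the TSS.

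The base composition around the summits moved with their position. The window of 50 bases to either side of the summit had a G+C content of 42.8 ± 8.87% (SD, n = 78 windows) at ribosomal protein genes and 34.6 ± 10.8% (SD, n = 2980 windows) at other promoter peaks. Where the summit was within 50 bp of the TSS the values were 45.5 ± 6.66% (SD) for 43 ribosomal protein genes and 43.2 ± 8.78% for 694 other peaks. Farther from the TSS they were 39.5 ± 10.1% for 35 ribosomal protein genes and 32.0 ± 9.98% for 2286 other peaks. The part of position and composition in the signal was not tested.

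The replicates placed ribosomal protein genes differently within their lists. For the 77 genes with an IDR peak and a promoter peak in both replicates, the median rank was 1316 in replicate 3 and 2242 in replicate 4, and 56 of 77 (72.7%) ranked better in replicate 3. For 4159 other genes the median ranks were 2452 and 2358, and 44.7% ranked better in replicate 3. The Spearman correlation of ranks between replicates, given as a description across genes that share both libraries, was 0.552 for ribosomal protein genes and 0.764 for others. In the IDR list the ranks of ribosomal protein genes had a narrower middle range, 1394 to 2793, against 1014 to 3882 for others. The part of this range in the correlation was not tested. Summit positions also moved, with a median of -3 bp in replicate 3 and -47 bp in replicate 4 for ribosomal protein genes, and -106 and -114 bp for other genes. The summits of the replicates were within 50 bp of each other at 43 of the 77 ribosomal protein genes and at 2693 of the 4159 others, with median gaps of 43 and 32 bp. With 2 libraries of unknown depth, the difference between them cannot be told apart from a difference in how they were made.

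**Figure D4:**
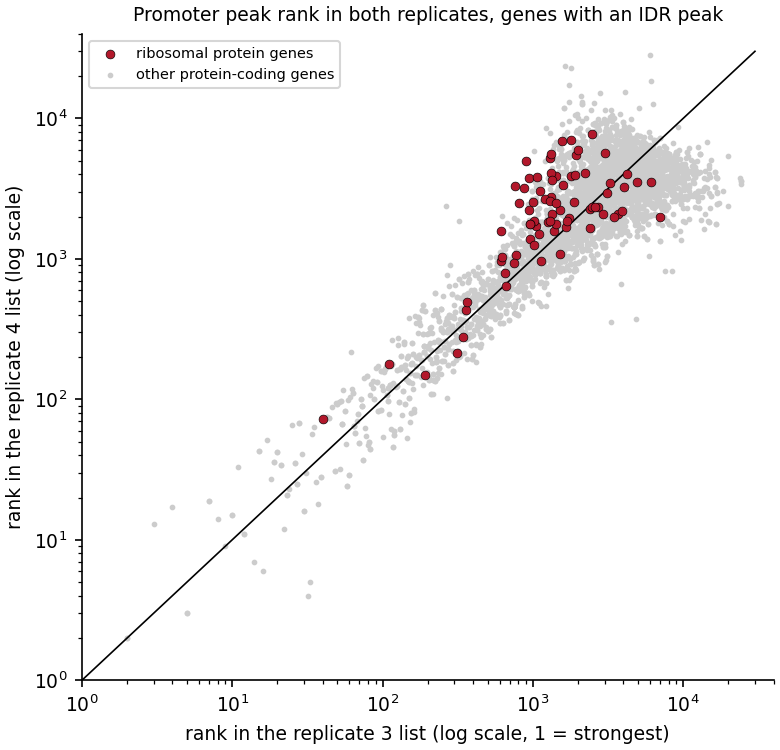
Rank of the promoter peak in the replicate 3 list (horizontal) and the replicate 4 list (vertical), both on log scales with rank 1 the strongest, for genes with an IDR peak and a promoter peak in both lists, 77 ribosomal protein genes in red and 4159 others in grey. The line marks equal ranks, and 56 of the 77 red points lie above it, where the rank was better in replicate 3.

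Many ribosomal protein genes had the TCT initiator at a start site. The word TCTTTC was searched on the gene's strand, with T or C allowed as its first and as its last letter, and with the second letter within 5 bp of any annotated TSS. A gene without a match may hold the word just outside this limit, which was not varied. A match was found for 55 of 92 ribosomal protein genes (59.8%) and 1.75% of other protein-coding genes. At the first TSS of each gene alone, which gives every gene the same chance of a match, the shares were 32.6% and 1.18%. Among ribosomal protein genes, 49 of 55 with a match had an IDR peak, 89.1% (78.2 to 94.9%), and so did 29 of 37 without one, 78.4% (62.8 to 88.6%), with overlapping intervals. Among other genes with a match, 94 of 242 had an IDR peak, 38.8% (32.9 to 45.1%), below the share of ribosomal protein genes without a match. Of those with a single TSS, 28 of 118 had a peak (23.7%), against 24.7% of all other genes with a single TSS. The median signal was 377.0 for ribosomal protein genes with a match and 297.7 for those without.

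Core promoter words known to be bound by other factors were searched within 50 bases of each summit, on both strands. The DRE, TATCGATA, was found at 8 of 78 ribosomal protein genes (10.3%, interval 5.29 to 19.0%), at 4.40% of 2980 other promoter peaks and in 5.56% of windows of the same length centred on the first TSS of each protein-coding gene. It was found at 7 of 46 large subunit genes and at 1 of 32 small subunit genes, RpS25, with overlapping intervals. The 6-base core of the DRE, ATCGAT, was found at 14 of 78 ribosomal protein genes (17.9%). It was found at 10.8% of other promoter peaks and in 13.1% of TSS windows, and these intervals overlapped that of ribosomal protein genes. With the core the subunits were closer, at 9 of 46 large subunit genes (19.6%) and 5 of 32 small subunit genes (15.6%). The core of motif 1, GTCACAC, which is bound by M1BP, was found at 7 ribosomal protein genes (8.97%), at 3.29% of other promoter peaks and in 6.32% of TSS windows. The TATA box, TATAAA, was found at 7.69% of ribosomal protein genes, 21.9% of other promoter peaks and 17.0% of TSS windows. GAGAG was found at 3.85, 8.83 and 11.5% in the same order, and the E-box CAGCTG at 3.85, 5.70 and 9.34%. The 8-base word CAACCCTG was searched because it ranked first among words in these same peaks, so its excess over TSS windows is no independent result. It was found at 2 ribosomal protein genes (2.56%), RpL7 and RpS6, and at 3.15% of other promoter peaks and 0.724% of TSS windows. A match is a match of letters and does not show that a factor was bound.

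The DRE and motif 1 windows are shown to let the position of each word be compared. In the first 5 the capitals mark the DRE, and in the last 2 the core of motif 1. These genes were picked once their values were known. Each window is centred on the IDR summit and written on the gene's strand.
RpL27 (chr3R:25684994-25685094, minus strand): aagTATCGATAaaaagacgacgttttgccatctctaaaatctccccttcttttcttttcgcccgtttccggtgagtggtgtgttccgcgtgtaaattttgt
RpL28 (chr3L:3222974-3223074, minus strand): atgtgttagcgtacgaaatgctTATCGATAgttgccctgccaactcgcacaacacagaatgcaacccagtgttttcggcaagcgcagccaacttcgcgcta
RpL34a (chr3R:26059274-26059374, minus strand): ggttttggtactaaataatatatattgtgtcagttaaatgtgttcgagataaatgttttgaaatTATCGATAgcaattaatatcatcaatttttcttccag
RpL36 (chrX:629453-629553, minus strand): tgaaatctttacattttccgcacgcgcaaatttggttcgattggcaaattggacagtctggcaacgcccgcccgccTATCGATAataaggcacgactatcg
RpL36A (chr2L:8042829-8042929, minus strand): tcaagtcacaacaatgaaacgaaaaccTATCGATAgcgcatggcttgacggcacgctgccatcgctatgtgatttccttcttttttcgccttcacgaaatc
RpL30 (chr2L:19009236-19009336, minus strand): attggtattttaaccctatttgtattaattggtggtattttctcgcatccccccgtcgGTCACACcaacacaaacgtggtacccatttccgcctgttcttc
RpL37A (chr2L:5070941-5071041, plus strand): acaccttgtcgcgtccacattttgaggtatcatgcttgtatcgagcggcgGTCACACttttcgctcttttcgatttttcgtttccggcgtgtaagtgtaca

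The 5 DRE words stand at different places in their windows, on either side of the summit. These 7 genes are a part of the 15 with either word, which also include RpS25 with a DRE and RpL7 with motif 1, both among the 12 strongest. Their signals were 385.8 for RpL27, 530.9 for RpL28, 478.4 for RpL34a, 386.9 for RpL36, 222.5 for RpL36A, 558.6 for RpL30 and 317.4 for RpL37A.

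Genes grouped by their symbols, here called duplicated genes or copies, were then set against the rest. No protein sequences were compared, so a shared symbol need not mark a copy of the same protein. Symbols that are equal after a final a, b, -like or hyphenated number is removed gave 13 groups with 27 members. Of these members 18 had an IDR peak, 66.7% (47.8 to 81.4%), against 60 of the 65 genes outside such groups, 92.3% (83.2 to 96.7%). The intervals cover the sampling of genes alone and are no test of this difference. All 65 genes outside the groups had a pooled promoter peak. Both members had an IDR peak in 4 groups, among them RpL34, RpLP0 and RpS14. In the other 9 groups at least 1 member had an IDR peak and 1 did not, and no group was without one.

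Among the groups with a peak at both members, RpS14a had a signal of 1586 and RpS14b 458.6, and these genes are tandem copies on X. RpL34b had 1382 and RpL34a 478.4. RpLP0, which forms the base of the ribosomal stalk, had 451.7, and RpLP0-like had 392.3. RpLP0-like resembles a yeast protein, Mrt4, that acts in ribosome assembly and is not part of the finished ribosome.

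In the remaining groups the member without an IDR peak was lower in all lists. RpL7 had 1157 in the pooled list and ranked 361 in replicate 3 and 431 in replicate 4, whereas RpL7-like had 45.7, ranked 5959 in replicate 3 and had no promoter peak in replicate 4. RpL24 had 673.4 and RpL24-like 140.5, just under the lowest IDR signal. RpL24-like and RpL7-like resemble yeast assembly factors of the large subunit, Rlp24 and Rlp7. RpS19a had 399.4 and the germ line copy RpS19b 41.0. RpS10b had 392.2 and ranked 936 in replicate 3 and 2242 in replicate 4. The germ line copy RpS10a had 54.1, ranked 10320 in replicate 4 and had no promoter peak in replicate 3. RpS15Aa had 335.5 and RpS15Ab 86.2, and 10.3% of the 36-base words within 250 bp of the RpS15Ab TSS occurred elsewhere in the genome. The part of these repeats in its low signal was not tested. RpL22 had 369.7 and RpL22-like, a copy enriched in testis, had no promoter peak in any list. RpL37-1 had 248.9 and RpL10Ab 221.0, and their copies RpL37-2 and RpL10Aa had none. RpS28b had 319.6 and RpS28a 295.0, and RpS28-like had none. The pooled summits credited to 3 of the members without an IDR peak were nearer to the TSS of a neighbour. At RpL7-like the summit lay 318 bp from its own TSS and 23 bp from that of JhI-21. At RpL24-like the distances were 100 bp and 56 bp for CG5276, and at RpS15Ab 22 bp and 14 bp for Lsm10. RpS28a, which had an IDR peak, had its summit 148 bp from its own TSS and 46 bp from that of Axn.

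**Figure D5:**
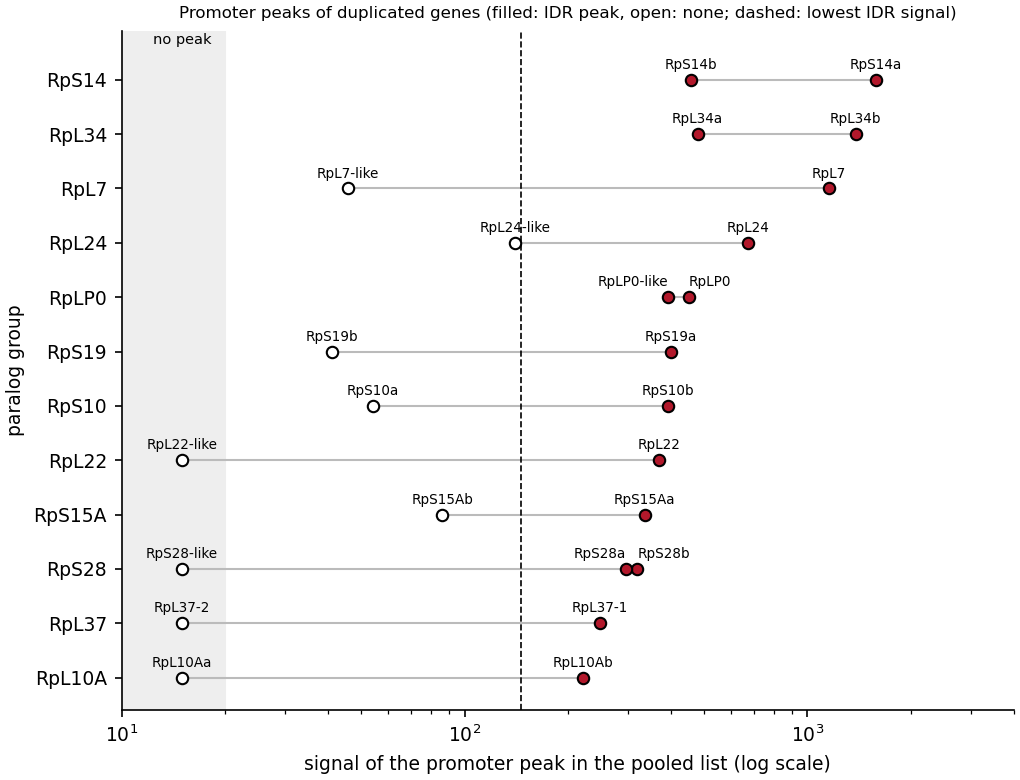
Signal of the promoter peak in the pooled list on a log scale for 12 of the 13 groups of duplicated ribosomal protein genes, 1 row per group and 1 point per gene. Filled points have an IDR peak and open points do not, the dashed line marks the lowest IDR signal, 146.3, and the 4 points in the grey band have no promoter peak in any list.

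The start sites of 3 pairs are shown, as examples of copies that differ in binding. Each window holds 30 bases to either side of an annotated TSS on the gene's strand, and capitals mark a TCT word whose second letter lies within 5 bp of the TSS. The same letters farther from the TSS are left in lower case. Where a gene has several TSSs the one with a TCT word was taken, and otherwise the one nearest to the summit.
RpL24 (chr2L:13395062-13395122, minus strand): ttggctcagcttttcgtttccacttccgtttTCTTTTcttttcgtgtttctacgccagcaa
RpL24-like (chr3R:11431552-11431612, minus strand): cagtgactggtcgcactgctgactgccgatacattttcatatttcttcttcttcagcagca
RpS19a (chrX:16637864-16637924, plus strand): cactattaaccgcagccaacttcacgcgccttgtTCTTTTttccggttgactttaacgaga
RpS19b (chr3R:23933500-23933560, minus strand): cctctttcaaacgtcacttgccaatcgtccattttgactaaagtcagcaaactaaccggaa
RpS10b (chrX:19598001-19598061, plus strand): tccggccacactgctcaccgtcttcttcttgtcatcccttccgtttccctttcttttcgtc
RpS10a (chr3R:27652730-27652790, plus strand): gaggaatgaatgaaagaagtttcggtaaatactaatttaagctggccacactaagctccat

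Over all 27 duplicated genes, 10 of 12 with a TCT word at a TSS had an IDR peak, and so did 8 of 15 without one. In the RpL24, RpS15A and RpS19 pairs the copy with an IDR peak has the word and the copy without an IDR peak does not. The RpL37 pair goes the other way, with the word at RpL37-2, which had no peak, and none at RpL37-1, which had one. RpL7-like also has the word and had no IDR peak. At RpL37-1, RpL22 and RpL10Ab, all with an IDR peak, a matching word stands just outside the limit of 5 bp. That limit was not varied, so the counts with and without a word hold for it alone. Neither RpS10 gene has the word within 5 bp of a TSS, and RpS10b had a peak.

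In all, 14 of the 92 genes had no IDR promoter peak, and 9 of them belong to the duplicated groups. The other 5 were RpS24, RpS12, RpL7A, RpL21 and RpL40, and all of these had a weaker pooled peak. RpS24 had a pooled signal of 129.8 and RpS12, which is known for its part in competition between cells, had 129.1. RpL7A had 126.9 and RpL21 112.2. RpL40, which is made as a fusion to ubiquitin, had 85.6. At RpS12 the nearest IDR summit lay 587 bp from the TSS, and at RpS19b it lay 889 bp away, so both gained a peak when the limit was set to 1000 bp. For the 4 genes with no promoter peak in any list, the nearest pooled summit was 747 bp away for RpS28-like, 2289 bp for RpL10Aa, 3179 bp for RpL37-2 and 10994 bp for RpL22-like.

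Just inside the IDR limit were RpL15 with 157.5, RpL5 with 165.3 and RpL38 with 178.5. RpL5 binds the 5S ribosomal RNA. RpL15 was the only gene with an IDR peak and no promoter peak in replicate 3, where the nearest summit lay 785 bp away. RpL5 ranked 2490 in replicate 3 and 7749 in replicate 4, and RpL38 ranked 6121 and 3548. RpL15 and RpL5 lie 0.842 and 0.979 Mb from the end of their arm next to the centromere, and RpL38 lies 4.52 Mb from it. RpL21 lies at 1.27 Mb, whereas RpS3A on arm 4 lies 0.0662 Mb from that end. RpS3A ranked 2326 of 5654. The part of position in the rank was not tested.

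Other genes of the translation machinery were counted from lists of known members for comparison. Of 10 genes of translation elongation and termination, 6 had an IDR promoter peak (60.0%), with a median signal of 465.2 and a median summit position of -24 bp. Of 27 genes of ribosome biogenesis and the nucleolus, 17 had a peak (63.0%), with a median signal of 282.4 and a median position of -128 bp. Both shares were above the 30.7% of all protein-coding genes and below the 84.8% of ribosomal protein genes. The lists are short, and their shares are given without intervals. The ribosomal proteins sta and Rack1, which are named otherwise and so were not among the 92, both had a peak, with signals of 398.5 and 469.7 at -30 and -34 bp.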

How the data were processed

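ChIP-seq of CG14711-eGFP was taken from 4 deposited narrowPeak lists in dm6 coordinates: replicate 3, replicate 4, both pooled, and the IDR list. Per the deposited text records, each list was called by the authors against a control alignment, which was not analysed here. For the aligner, the caller and the IDR cut-off, names and values were not given in the sources used here. Per the labels, chromatin was sonicated to 200 to 800 bp, which limits the resolution of summits. The deposited signal value ranks peaks within a list, and its scale differs between lists. The deposited −log10 q values reach a shared maximum in each list and were not used to compare genes. No per-sample column was left out (0). The files used hold no read counts.

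TSSs came from the Ensembl annotation (BDGP6.54, release 115) on the main arms (23998 positions), and sequence from RefSeq's copy of the assembly. Summits were the deposited start plus offset. Each gene took its promoter peak of highest signal. Intervals given for shares are Wilson 95% intervals. The assignment was tested on simulated peaks with known answers. Python 3.11.15, pandas 2.3.3, numpy 2.4.6, scipy 1.17.1 and matplotlib 3.10.9 were used.

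Members, gene lists, motifs and rules were chosen with earlier results of these data known. Named genes were the 12 of highest signal, the 3 weakest with an IDR peak, the 3 with the farthest summits, all without an IDR peak or with no peak in 1 replicate, and all duplicated genes, with neighbours that share a peak. Genes named outside this rule, such as RpL18, RpL29 and RpS3A, were picked once their values were known. A few genes that the rule names are not reported here. No test was made, since there is 1 group. Alternatives were other summit limits, neighbour limits, peak lists, each replicate alone, the 2827 strongest IDR peaks, the nearest TSS only, and overlap of the peak interval with a TSS.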

Additional observations from a re-analysis of the deposited data

How the results depend on the processing

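Of 70 values recomputed under alternatives, 8 moved by more than the SD of the values from each replicate alone or, for counts, by more than 1.5 times, and 62 did not. For medians that SD comes from the same 2 values that leave out a replicate, so it cannot judge those. The median summit position was -48 bp without replicate 3 and -3 bp without replicate 4. The number of ribosomal protein genes with a promoter peak ran between 61 (the 2827 strongest IDR peaks) and 88 (whole pooled list), and was 37 of 48 when genes with several TSSs were left out, a smaller set. With a neighbour limit of 500 bp the counts were 33 of 37 genes that share a promoter and 45 of 55 alone, and with neighbours of any gene type 16 of 21 alone. These changes follow from the number of genes in each class. Leaving out each replicate in turn and taking the best 5654 peaks of the other gave 75 and 77 genes, with a median rank of 1316 to 2237 and a median signal of 170.4 to 210.4, whose scale differs between lists. Without replicate 3, RpL5, RpL6, RpS3, RpS9 and RpS18 lost their peak, and RpL24-like and RpS24 gained one. Without replicate 4, 3 genes did, RpL15 and RpL38 among them, and RpL40 and RpS12 gained one. The median signal in the 2827 strongest IDR peaks was 385.8, against 522.4 for other genes, an order opposite to that of the whole list. Of 4 equal parts of the IDR list by rank, the strongest held 21 ribosomal protein genes and the next 40. For other genes these counts were 1382 and 1044. The median of these strongest peaks therefore fell in the second part for ribosomal protein genes and in the first for others. Why ribosomal protein genes lay mostly in the second part was not tested. No paired analysis was possible because there was 1 group and no second condition to pair. Depth is unknown, so a missing peak is not evidence of no binding.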

Other observations

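The 8-base word CAACCCTG, which ranked first among words in these same peaks, was also searched within 150 bp of the summits, a window chosen after the data were seen. It was found at 5 of 78 ribosomal protein genes (6.41%, interval 2.77 to 14.1%) and at 4.83% of other promoter peaks. In the strongest of 4 equal parts of the IDR list, by rank, it was found at 3 of 21 ribosomal protein genes, RpS14a, RpL34b and RpL7, and at 12.4% of 916 other promoter peaks. In the rest of the list it was found at 2 of 57 ribosomal protein genes, RpS6 and RpL37-1, and at 1.45% of 2064 other promoter peaks. At RpS14a and RpL34b the word began 86 and 98 bp from the summit, outside the window of 50 bases, and 28 and 8 bp upstream of the TSS. Since the word was picked from these peaks, its spread over ranks is a description and no independent result.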
